A study of Mus musculus with 2 samples.

Results

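CC chemokines are small secreted proteins that share a pair of adjacent cysteines and guide leukocytes by binding receptors of the CCR family. In tumours they are known for drawing monocytes, T cells and dendritic cells out of the blood, and macrophages are a textbook source of many of them. The genes described here are the 9 whose symbols are Ccl2, Ccl3, Ccl4, Ccl5, Ccl6, Ccl7, Ccl8, Ccl9 and Ccl12, out of 56941 genes in the deposited tables. All 9 lie on chromosome 11, and all 9 held at least 100 unique molecular identifiers (UMIs, each counting 1 captured transcript) over the kept cells. They were chosen by symbol and not by a measured value.

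The data are single-cell RNA libraries of subcutaneous tumours in C57BL/6 mice. The tumours grew from MC38, a mouse cell line labelled as colon adenocarcinoma cells of genotype WT. It had been made into a stable pool by lentivirus carrying either SPP1, a secreted glycoprotein also named osteopontin, or a control vector. Mice of both groups were given anti-PD-1, which blocks PD-1, an inhibitory protein on T cells, intraperitoneally at 10 mg/kg, 2 injections per week for 2 weeks from day 7, and no group without the antibody was used. There was 1 library per group, so no test across animals was possible, and every difference below is between 2 libraries. Ranges after a value are 95% intervals that cover counting error only, and cells were not used as replicates. Where a pair of values is given without a name, the library labelled vector comes first and the library labelled SPP1 second.

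There were 14317 barcodes with 164247003 UMIs in all for the library labelled vector, and 14029 with 164599332 for the one labelled SPP1. The libraries shared 93 barcodes. After filters 13820 and 13378 cells remained. The largest group, 9828 and 9875 cells, passed no list of cell type markers, the epithelial or tumour list included, and is called the large compartment. Levels are given as CPM, the UMIs of a gene scaled to a fixed total of all UMIs in the class. Although the labels call the line colon adenocarcinoma, 6 epithelial genes were near 0 there: Epcam had 2 and 1 UMIs, and the highest, Lgals4, stood at 2.77 and 3.01 CPM. Spp1 stood at 134 and 126 CPM in the large compartment, with no rise in the library named for it. The labels do not say which species' sequence the virus carried, and Spp1 therefore gave no check of them. The immune and stromal classes were macrophage/monocyte-like (897 and 712 cells), T and NK-like (156 and 109 cells), fibroblast-like (40 and 40) and dendritic cell-like (42 and 21). Cells of low UMI content (2535 and 2334) and clusters that also carried the genes of the large compartment (302 and 256 cells, called mixed) were kept apart.

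The members fall into 2 runs of neighbouring genes. In RefSeq's gene order Ccl2, Ccl7, Ccl11, Ccl12 and Ccl8 follow each other, as do Ccl5, Ccl9, Ccl6, Ccl3 and Ccl4. RefSeq's promoter table (build GRCm38.p6, whereas the deposited counts rest on GRCm39) held 5 of the 9 members. The 250 bases before the transcription start are printed for Ccl8 with Ccl12 and Ccl6 with Ccl9, neighbouring pairs that were closely alike across macrophage states, as described further on, and for which the table holds both members. Capitals mark every match, on either strand, to 3 short motifs: the TATA box TATAAA, the PU.1 core GAGGAA and the AP-1 site TGANTCA.
Ccl8, chr11:82114935-82115184, plus strand: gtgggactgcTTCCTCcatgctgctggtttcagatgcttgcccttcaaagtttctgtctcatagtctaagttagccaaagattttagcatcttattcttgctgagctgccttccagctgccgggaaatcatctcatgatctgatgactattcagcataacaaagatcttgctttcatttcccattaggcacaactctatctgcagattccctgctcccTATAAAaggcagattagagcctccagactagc
Ccl12, chr11:82101595-82101844, plus strand: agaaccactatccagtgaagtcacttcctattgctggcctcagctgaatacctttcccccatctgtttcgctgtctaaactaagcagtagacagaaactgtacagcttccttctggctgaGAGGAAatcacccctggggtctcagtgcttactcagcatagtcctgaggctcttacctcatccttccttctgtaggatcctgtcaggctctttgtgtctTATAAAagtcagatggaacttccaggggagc
Ccl6, chr11:83593088-83593337, minus strand: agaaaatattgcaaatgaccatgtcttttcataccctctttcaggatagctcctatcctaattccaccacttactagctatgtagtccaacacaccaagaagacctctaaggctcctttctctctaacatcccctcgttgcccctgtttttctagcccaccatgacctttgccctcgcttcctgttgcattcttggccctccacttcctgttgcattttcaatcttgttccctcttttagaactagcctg
Ccl9, chr11:83578637-83578886, minus strand: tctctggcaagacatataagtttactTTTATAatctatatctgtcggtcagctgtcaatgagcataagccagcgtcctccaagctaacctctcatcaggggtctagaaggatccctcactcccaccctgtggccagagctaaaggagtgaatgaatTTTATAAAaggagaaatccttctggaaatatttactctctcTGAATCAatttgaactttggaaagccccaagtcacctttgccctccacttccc

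In the Ccl8 window TATAAA began 32 bases before the start, and in the Ccl12 window 31 bases before it. Each of these promoters also held GAGGAA once, at 240 bases in Ccl8 and 130 bases in Ccl12. The Ccl9 window held TATAAA at 224, 94 and 92 bases, the last pair overlapping on opposite strands, and TGANTCA at 53 bases. The Ccl6 window held none of the 3 motifs, and that of Ccl3, not printed, held GAGGAA at 33 bases. Among windows of the same length before all 32851 RefSeq starts, 12.4% held TATAAA, 23.3% GAGGAA and 6.75% TGANTCA, so single matches are common. The interferon response motif (in 2.98% of all windows) matched in none of the 5 members' windows, and the kappa B motif (45.8%) matched in Ccl9 alone, at 35 bases, left in lower case. Aligned end to end, the Ccl8 and Ccl12 windows were identical at 55.6% of alignment columns, the highest of 10 pairs, and the Ccl6 and Ccl9 windows at 46.8%. These matches describe the letters and say nothing of which factor was bound.

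The first question was which cell class carried each member. Ccl2 and Ccl7 were carried mostly by the large compartment, 6 members mostly by macrophage/monocyte-like cells, and Ccl5 by several classes at once. Ccl2, the main attractant of Ccr2-bearing monocytes, had 89.5% of its UMIs in the large compartment of the library labelled vector and 87.5% in that of the library labelled SPP1. Ccl7, another ligand of Ccr2, had 74.0% and 65.3% there. The macrophage/monocyte-like share of Ccl2 was 5.10% and 6.16%, and that of Ccl7 was 18.6% and 27.1%.

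For the other 6 members the macrophage/monocyte-like cells, 6.49% and 5.32% of kept cells, held 66.0% to 89.7% of the UMIs. Ccl12, a mouse Ccr2 ligand, had 89.7% and 84.2% of its UMIs in them. Ccl6 and Ccl9, ligands of Ccr1 found in mice, had 86.1% and 86.2%, and 82.7% and 80.4%. Ccl3, a ligand of Ccr1, and Ccl4, both macrophage inflammatory proteins, had 78.1% and 85.5%, and 70.2% and 81.9%. Ccl8, known in mice as a ligand of Ccr8, had 66.0% and 72.4%, with 20.5% and 17.3% in the large compartment. Ccl5, a ligand of Ccr1 and Ccr3 known as a product of activated T cells, was split. The large compartment held 42.7% and 40.9% of its UMIs, macrophage/monocyte-like cells 16.3% and 31.0%, T and NK-like cells 17.6% and 17.4%, and dendritic cell-like cells 11.3% and 3.87%.

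**Figure D1:**
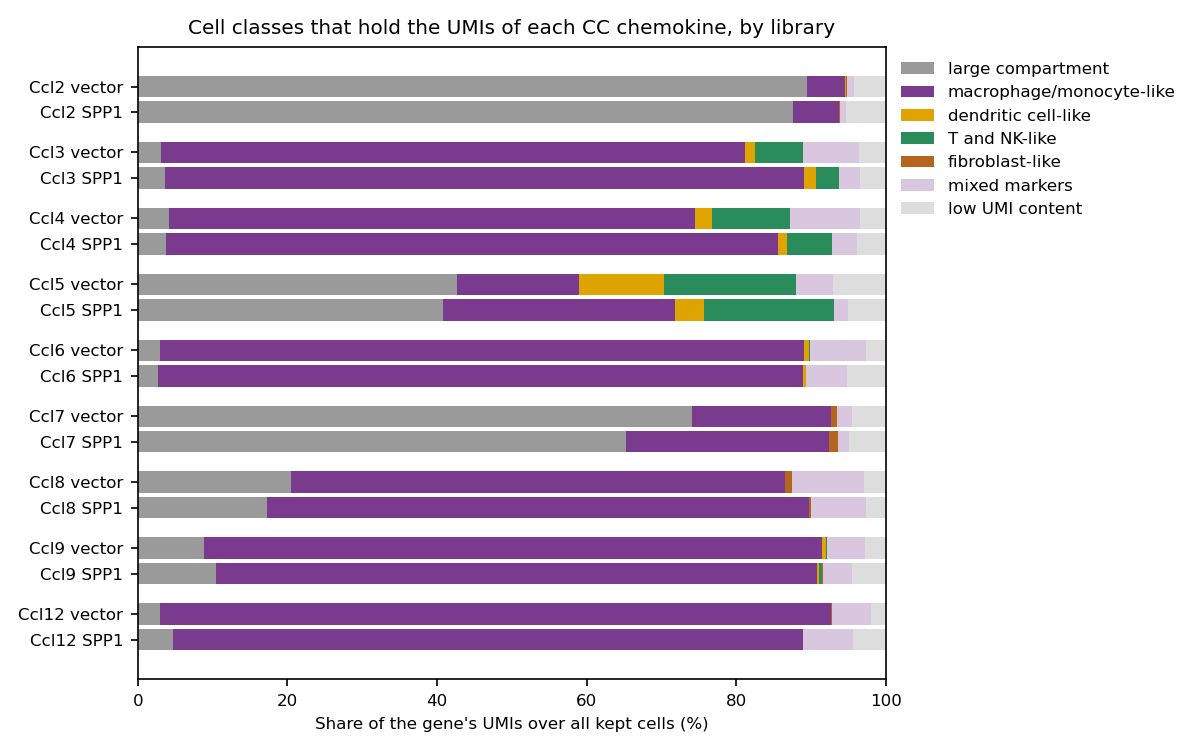
Share of each gene's UMIs over all kept cells (%, horizontal axis) by cell class (colours), with 1 bar per gene and library. Endothelial-like and pericyte-like cells, which are few, are not drawn. Grey, the large compartment, fills most of the Ccl2 and Ccl7 bars (89.5% and 74.0% in the library labelled vector), and purple, macrophage/monocyte-like cells, most of the bars of Ccl3, Ccl4, Ccl6, Ccl8, Ccl9 and Ccl12.

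A share depends on how many cells a class has, so levels were compared as CPM of the class. In the large compartment Ccl2 stood at 1269 CPM (1264 to 1275) and 1041 CPM (1036 to 1047), against 1480 and 1892 CPM in macrophage/monocyte-like cells. Ccl7 stood at 154 and 97.9 CPM in the large compartment and at 793 and 1050 CPM in macrophage/monocyte-like cells. Fibroblast-like cells carried both: Ccl2 at 498 and 513 CPM and Ccl7 at 485 and 613 CPM, although 3 cells held 61.3% and 59.2% of that Ccl2. T and NK-like cells held Ccl2 at 92.2 and 96.6 CPM and Ccl7 at 14.6 and 7.89 CPM. The order of Ccl7 levels was therefore macrophage/monocyte-like, fibroblast-like, large compartment, then T and NK-like cells in both libraries.

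Free RNA and doublets give every class some counts of genes it does not express, and genes of macrophages served as a yardstick. In the large compartment C1qa, C1qb, C1qc, Csf1r, Fcer1g and Tyrobp stood at 0.145% to 0.505% of their macrophage/monocyte-like level (vector) and 0.154% to 0.369% (SPP1). Ccl3, Ccl4, Ccl6 and Ccl12 stood at 0.123% to 0.291%, within that range or below it. Ccl9 stood at 0.524% (vector), just above the upper end of 0.505% there, and at 0.505% (SPP1), above the upper end of 0.369%. Ccl8 stood higher, at 1.51% and 0.925%, Ccl5 at 12.8% and 5.10%, Ccl7 at 19.4% and 9.33%, and Ccl2 at 85.7% and 55.0%. The Ccl5 values have a low base: its macrophage/monocyte-like level was 80.0 and 199 CPM, against 859 and 1167 CPM in T and NK-like cells. In the large compartment Ccl5 stood at 10.2 CPM in both libraries. There 5 genes of T and NK cells stood at 0.0146% to 0.0320% (vector) and 0.0117% to 0.0256% (SPP1) of their T and NK-like level. The counts of Ccl3, Ccl4, Ccl6 and Ccl12 in the large compartment were thus at the level of background, and those of Ccl2, Ccl7, Ccl5 and Ccl8 above it. Ccl9 lay between these groups.

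**Figure D2:**
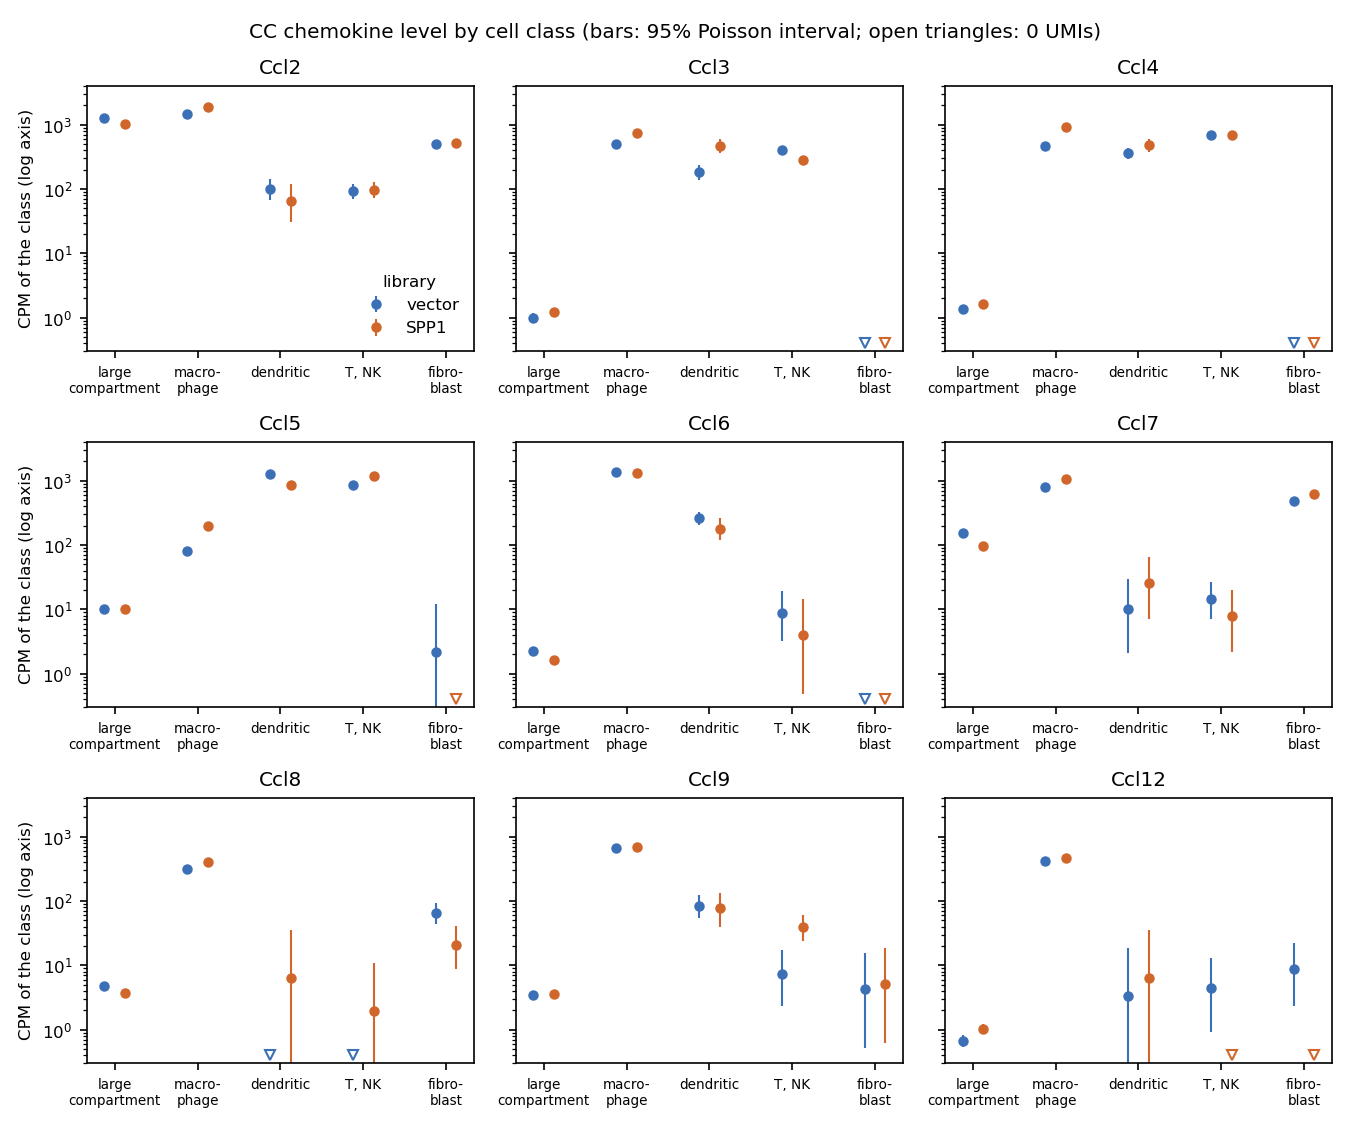
Level of each gene in 5 cell classes (CPM of the class, log axis), with 1 point per library and 95% Poisson intervals; open triangles at the bottom mark classes with 0 UMIs. Ccl2 stands between 1041 and 1892 CPM in both the large compartment and the macrophage/monocyte-like cells, while Ccl3, Ccl4, Ccl6 and Ccl12 stand between 0.669 and 2.25 CPM in the large compartment.

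Detection in single cells gave the same split. Each cell was thinned to 1000 UMIs, which left out 42 and 63 cells of the large compartment and 41 and 41 macrophage/monocyte-like cells. Of the large compartment, Ccl2 was detected in 48.7% of thinned cells (47.7 to 49.7) and 41.9% (40.9 to 42.9). Before thinning these shares were 89.7% and 84.6%. In T and NK-like cells, which should lack the gene, it was found in 7.19% and 9.71% of thinned cells. Median depth before thinning was 12594 and 12036 UMIs in the large compartment and 3579 and 3609 UMIs in T and NK-like cells.

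Ccl7 was detected in 11.8% (11.1 to 12.4) and 7.79% (7.26 to 8.33) of thinned cells of the large compartment, and in 47.9% and 34.9% before thinning. Its share in T and NK-like cells was 1.96% and 0 of 103 cells, where a count of 0 allows up to 2.91%. In macrophage/monocyte-like cells, with median depths of 7557 and 7186 UMIs, Ccl2 was detected in 42.5% and 55.3% of thinned cells. Ccl6 was detected in 49.9% and 43.8% of them, Ccl9 in 39.7% and 40.8%, Ccl7 in 29.6% and 36.8% and Ccl12 in 16.2% and 23.8%. Ccl8 was found in 12.1% and 12.7% of them. Ccl6, Ccl8, Ccl9 and Ccl12 stood at 0% to 1.94% in thinned T and NK-like cells, where a count of 0 allows 1.96% and 2.91%. A thinned macrophage/monocyte-like cell held UMIs of 2 and 3 members at the median, and 10.0% and 6.41% of such cells held none.

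The next question was which macrophage states carried the members. The states were formed without any gene whose symbol begins with Ccl and a digit, so the members did not define them, and each is named here by a number and its leading genes. P1 was led by Areg, Olr1, Dcstamp and Antxr2 and raised 5 of 5 inflammatory markers, P2 by the cell division genes Hmmr, Knl1, Nusap1 and Kif23, and P3 by Ifit3, Ifit2, Cmpk2 and Rsad2, genes induced by interferon. P3 also raised 3 of 5 lipid and lysosome markers in both libraries, and against all kept cells its leading genes were Mmp13, Hspa1a, Atp6v0d2 and Mmp12. P4 was led by C9, Cpb2, Pde4c and Gm47507, and P5 by Cxcl9, Gm26802, Sorl1 and Ciita. P6 was led by Slco2b1, Rapgef5, Fcrls and Gas6 and raised 8 of the 8 resident-like markers in the first library and 7 in the second. P7 had a low UMI content, with a median of 1394 and 1334 UMIs per cell. P8 was led by S100a9, Plac8, Ly6d and Ly6c2, genes of fresh monocytes.

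The states held different shares of the class in the 2 libraries. P6 made up 5.69% of macrophage/monocyte-like cells in the library labelled vector (51 cells) and 19.8% in the library labelled SPP1 (141 cells). P1 held 215 and 107 cells, and P5 made up 14.8% and 9.41%. The other 5 states each held between 3.65% and 15.3% of the class.

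The resident-like state P6 carried Ccl7, Ccl3, Ccl4, Ccl2 and Ccl12 above the rest of the class in both libraries. Each of them was highest in P6 in the library labelled vector. In the library labelled SPP1 other states stood above P6 for Ccl2 (P2 and P4), Ccl4 (P3) and Ccl12 (P4, P7, P2 and P5). Ccl7 stood at 2690 and 1618 CPM in P6, which were log2 ratios of 2.00 and 0.84 over the other states. Ccl3, a macrophage inflammatory protein, stood at 1232 and 1191 CPM (1.44 and 0.93). Ccl4 stood at 1073 and 1305 CPM (1.34 and 0.68). Ccl2 stood at 2965 and 2018 CPM, so its ratio over the rest was 1.10 in the library labelled vector but 0.12 (0.05 to 0.19) in the library labelled SPP1. Ccl12 stood at 1051 and 511 CPM (1.48 and 0.14, the latter with an interval of 0.00 to 0.28), and Ccl8 was above the rest in the library labelled vector (1.82) and below it in the library labelled SPP1 (-0.80). Ccl5 and Ccl6 were low in P6: Ccl5 at 9.74 and 13.7 CPM, the lowest of the 8 states in both libraries, and Ccl6 at 1000 and 507 CPM, with log2 ratios of -0.46 and -1.58.

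The inflammatory state P1 had another mix. Ccl6 stood there at 1525 and 2244 CPM, with log2 ratios over the rest of 0.24 and 1.04, and Ccl9 at 749 and 787 CPM (0.25 and 0.21). Ccl8 stood at 40.8 and 28.2 CPM (-3.38 and -4.11), Ccl7 at 285 and 506 CPM (-1.79 and -1.21) and Ccl12 at 132 and 199 CPM (-2.00 and -1.43). In both libraries P1 thus held Ccl6 and Ccl9 above the rest of the class and the other 7 members below it. P4 held Ccl12 at 1040 and 970 CPM, Ccl9 at 956 and 978 CPM, Ccl6 at 2610 and 1632 CPM, and Ccl8 at 506 and 1075 CPM. The cycling state P2 held Ccl2 at 2434 and 2762 CPM, and P5 held Ccl4 at 800 and 1041 CPM.

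The monocyte-led state P8 had the lowest Ccl7, Ccl8 and Ccl12 of all states in both libraries. There Ccl8 had 2 and 0 UMIs, Ccl12 had 14 and 2 UMIs, and Ccl7 had 11 and 28 UMIs (61.0 and 260 CPM). Ccl2 and Ccl3 also stood below the rest of the class in P8, with log2 ratios of -1.09 and -0.60 for Ccl2 and -0.54 and -0.98 for Ccl3. Ccl9 stood at 643 and 510 CPM and Ccl6 at 1403 and 816 CPM. Both lay within the range of the other states in each library. Markers of neutrophils were also raised in P8: their summed level over 7 genes was 333 and 102 CPM, against 12.7 to 93.9 CPM in the other states. Of the 7 genes, 1 was at 0 in P8 of the library labelled vector and 5 were in the other library, and their part in the P8 levels was not tested.

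**Figure D3:**
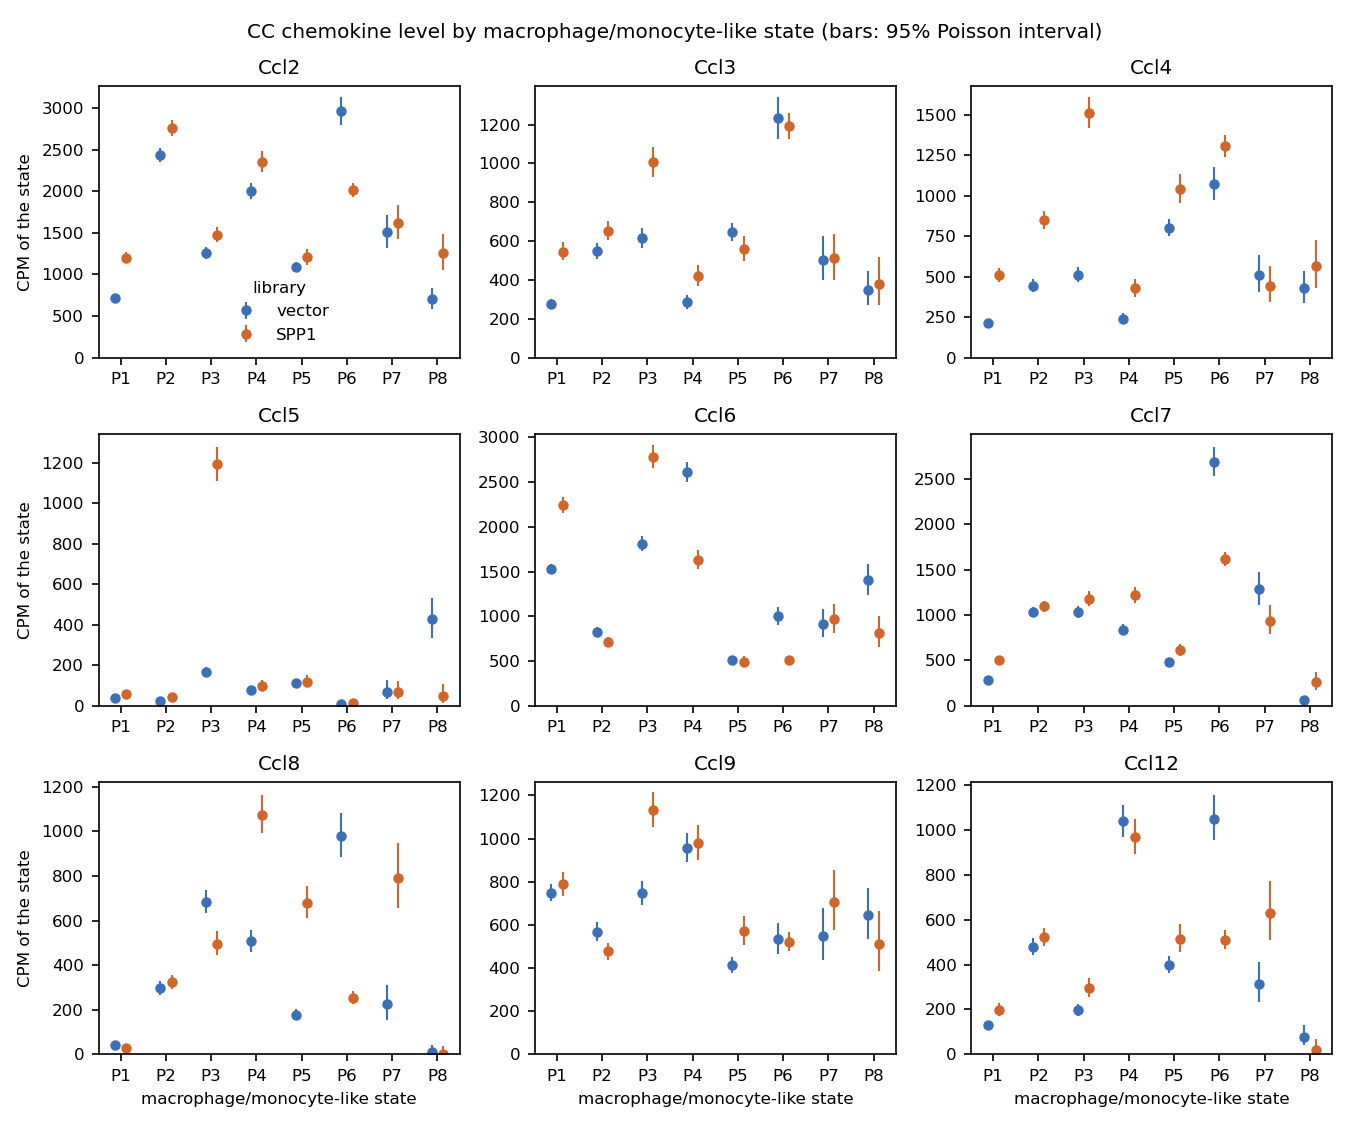
Level of each gene (CPM of the state, linear axis from 0) in the 8 macrophage/monocyte-like states P1 to P8, with 1 point per library and 95% Poisson intervals. Ccl7 and Ccl3 peak in P6, Ccl12 stands at 970 CPM or more in P4, Ccl8 and Ccl12 are low in P1 and P8, and Ccl5 stands out in P3 of the library labelled SPP1 at 1191 CPM.

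Ccl5 was the member whose UMIs lay in the fewest macrophages. In the interferon-led state P3 it stood at 166 CPM and 1191 CPM, but 20 cells in each library held a UMI of it there, and the 3 highest held 65.0% and 60.5% of the UMIs. The highest single cell of P3 held 315 of the 799 Ccl5 UMIs in the library labelled SPP1 and 55 of 163 in the library labelled vector. The 3 highest macrophage/monocyte-like cells of each library held 116 and 312 UMIs of the 6 macrophage genes of the yardstick and 0 UMIs of Cd3e, Cd3d, Cd3g, Nkg7 and Gzmb. In P8 of the library labelled vector Ccl5 stood at 427 CPM, of which 3 cells held 79.2%. After thinning, Ccl5 was found in 4.32% (37 cells) and 4.62% of macrophage/monocyte-like cells, with intervals that overlap (3.06 to 5.91 and 3.16 to 6.49), where its level differed by 2.49-fold. Thinned cells of the large compartment gave 0.521% and 0.489%. That class carried Ccl5 above background, so these shares are no measure of background for it.

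Across the 8 states and both libraries, which give 16 points, the most similar levels were those of neighbouring genes. Pearson's r of log2(CPM + 1) was 0.91 for Ccl8 and Ccl12, 0.89 for Ccl3 and Ccl4, 0.88 for Ccl6 and Ccl9 and 0.82 for Ccl2 and Ccl7, the 4 highest of 36 pairs. Each of these is a pair of next neighbours in RefSeq's gene order. The remaining 2 of the 6 neighbouring pairs were less alike: r was 0.51 for Ccl5 and Ccl9 and -0.30 for Ccl3 and Ccl6. The r of Ccl8 and Ccl12 includes the points of P8, where Ccl8 had 2 and 0 UMIs and Ccl12 had 14 and 2. The value without P8 was not computed, and in single cells this pair ranked 9 and 11 of the 36. The points share libraries and class totals, and these values are a description only.

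In single macrophage/monocyte-like cells thinned to 1000 UMIs some of these pairs were also found together. Spearman's rho was 0.51 in both libraries for Ccl2 and Ccl7, the highest of the 36 pairs. Of thinned cells with a Ccl2 UMI, 52.5% and 53.6% held a Ccl7 UMI, against 12.6% and 16.0% of those without. For Ccl3 and Ccl4 rho was 0.39 and 0.37, and Ccl4 was found in 51.7% and 59.9% of cells with Ccl3 against 16.0% and 26.9% of those without. Ccl7 and Ccl12, which are not neighbours, gave 0.37 and 0.41, Ccl6 and Ccl9 0.24 and 0.22, and Ccl8 and Ccl12 0.19 and 0.17. The rho of Ccl2 and Ccl7 was 0.21 and 0.22 in the large compartment. The cells share depth after thinning but also share a library, and no test was made.

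Other genes whose levels over the 16 points were most like a member's were named from 5165 genes with at least 50 CPM at 1 or more points. Ccl7 was most like B3galnt1, Adgre1 (which encodes the macrophage marker F4/80) and Grn (progranulin), with r of 0.96, 0.95 and 0.94. Ccl8 was most like Mnat1, the complement receptor gene C3ar1 and the adhesion gene Vcam1 (0.95, 0.93 and 0.92), and Ccl12 most like Atxn10, Rnase4 and Mir99ahg (0.94, 0.93 and 0.92). Ccl6 and Ccl9 shared the glycolysis genes Pgk1 (0.90 and 0.88) and Ldha (0.89 and 0.85), with the protease gene Adam8 for Ccl6 (0.87) and the glycolysis gene Gpi1 for Ccl9 (0.86). Ccl4 was most like Atf3, Dnajb1 and Jun (0.85, 0.85 and 0.82) and Ccl3 most like Egr1, Man1a and Fnip1 (0.86, 0.84 and 0.81), of which Atf3, Jun and Egr1 are immediate early transcription factors. For Ccl2 they were P2rx7, Psmc5 and Sypl (0.87, 0.86 and 0.84), and for Ccl5 the interferon-induced Xaf1 and Ddx60 and the autophagy gene Atg4c (0.80, 0.77 and 0.77). Some of these genes had few counts: B3galnt1 ranged from 0 to 68.2 CPM, Mnat1 from 18.5 to 68.1 CPM and Xaf1 from 4.55 to 67.1 CPM. Others stood higher, such as Grn at 200 to 633 CPM. The 16 points include P8, and these values of r are a description only.

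Over the 12 clusters of the large compartment Ccl2 and Ccl7 were both above the rest of it in C1, C6 and C8 in both libraries. They parted in C3, where Ccl2 was above the rest (1485 and 1283 CPM, log2 ratios of 0.28 and 0.36) and Ccl7 below it (128 and 88.1 CPM, -0.32 and -0.18), and in C11 of the library labelled vector, where Ccl7 was above (0.23) and Ccl2 below (-0.55). The cluster C8, led by the interferon-induced genes Ifit1, Ifit3, Rsad2 and Ifi44, had the highest Ccl2 in both libraries, at 2280 and 2319 CPM. It also had the highest Ccl7, at 295 and 249 CPM, Ccl8, at 11.5 and 13.1 CPM, and Ccl5, at 67.7 and 45.0 CPM, among clusters of at least 100 cells. C8 held 36.1% and 23.1% of the large compartment's Ccl5 UMIs with 6.17% and 5.55% of its cells. The 3 cells with the most Ccl5 in the large compartment held 27.6% and 20.2% of that gene's UMIs there, with 0 UMIs of the 5 T and NK genes and 0 and 3 UMIs of the 6 macrophage genes.

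At the low end stood the cluster C10, led by the histone genes H1f5 and H2ac8, with Ccl2 at 452 and 674 CPM and Ccl7 at 27.6 and 31.8 CPM, and C4, led by Ppm1n and Gipc2, with Ccl2 at 663 and 512 CPM. C1, led by Dpt and Ogn, and C6, led by Fbxl7, were high in both genes: Ccl2 stood at 1522 and 1429 CPM in C1 and at 1671 and 1504 CPM in C6. The cluster C5 (48 and 1592 cells) and the cluster C15 (21 and 448 cells) were 97.1% and 95.5% from the library labelled SPP1. Ccl2 stood there at 766 and 796 CPM in that library and Ccl7 at 42.4 and 39.6 CPM, below the class means of 1041 and 97.9 CPM.

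**Figure D4:**
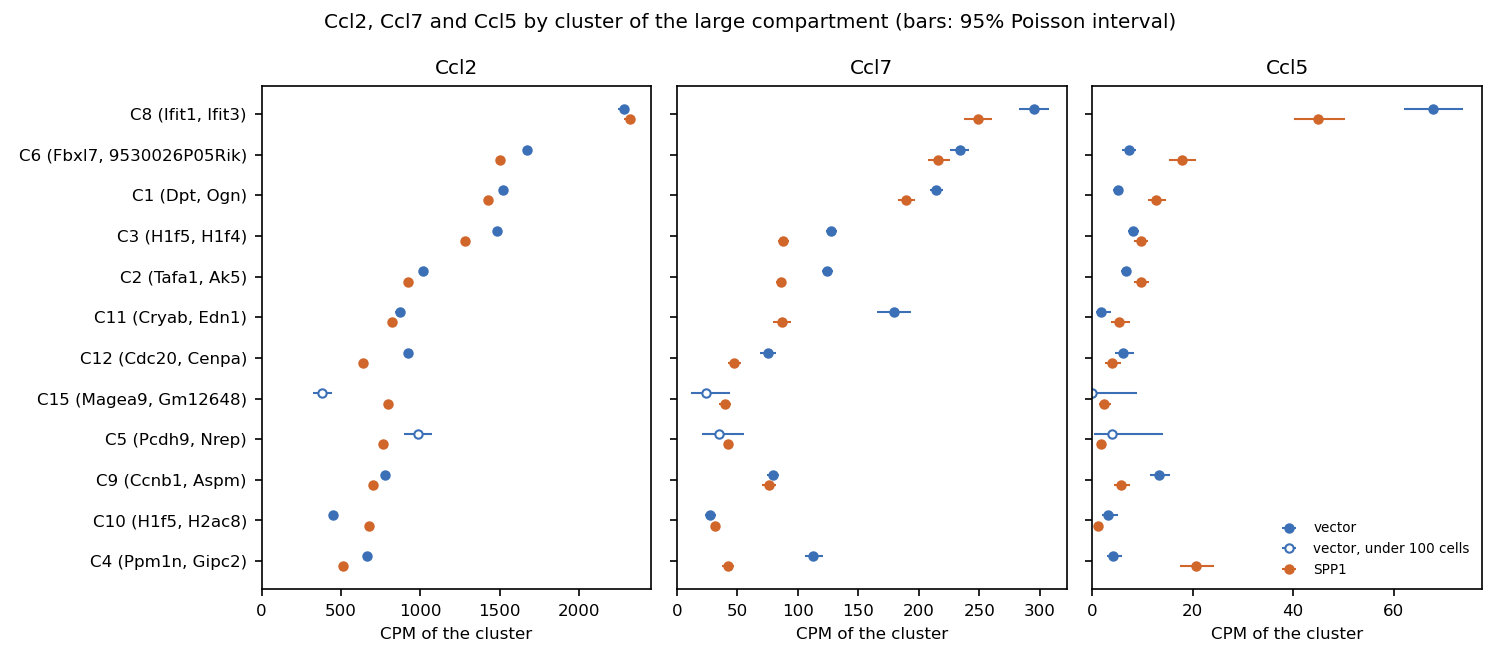
Ccl2, Ccl7 and Ccl5 (CPM of the cluster, linear axis from 0) in the 12 clusters of the large compartment, named by number and 2 leading genes and ordered by Ccl2; points are libraries with 95% Poisson intervals, and open points mark under 100 cells. C8 tops all 3 panels, and in most clusters the Ccl7 point of the library labelled SPP1 lies left of that of the library labelled vector.

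The comparison of the libraries asked how the members differed between tumours of SPP1-transduced and vector-transduced cells under the antibody. In macrophage/monocyte-like cells 8 of the 9 members were higher in the library labelled SPP1 and Ccl6 was slightly lower. Ccl2 and Ccl7 were lower in that library in the large compartment. Past 1.5-fold, the size used throughout, stood 2 members higher and 0 lower in macrophage/monocyte-like cells, where 2.96% of 8456 genes were that much higher and 1.82% that much lower. Among genes of the large compartment 1 member was past it in each direction, beside 4.02% and 1.53% of 15393 genes. The members' median log2 ratio was 0.35 in macrophage/monocyte-like cells (-0.02 over all genes) and -0.01 in the large compartment (0.01 over all genes). With 1 library per group these differences cannot be told apart from differences between any 2 mice. Among genes with at least 1000 UMIs the median size of the log2 ratio was 0.132 in macrophage/monocyte-like cells and 0.116 in the large compartment.

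Ccl4 and Ccl5 were the pair past 1.5-fold in macrophage/monocyte-like cells. Ccl4 stood at 464 CPM (448 to 481) and 918 CPM (892 to 944), a log2 ratio of 0.98 (0.92 to 1.05). It was detected in 24.6% (21.8 to 27.7) and 37.9% (34.2 to 41.6) of thinned cells, against 0.153% and 0.173% in the large compartment, the reference for this gene. Within the states the interval of its ratio lay above 0 in 6 of 8 and below 0 in none, from -0.20 in P7 to 1.56 in P3. The level of Ccl5 was 80.0 CPM (73.5 to 87.1) and 199 CPM (187 to 212), a ratio of 1.32 (1.17 to 1.47). Over the 7 states with enough Ccl5 UMIs its interval lay above 0 in 3 and below 0 in 1, from -3.20 in P8 to 2.85 in P3. P3 held 163 of 543 and 799 of 1058 Ccl5 UMIs of the class, and outside P3 the level was 65.5 and 55.8 CPM, so the higher level with the SPP1 label lay in P3. The ratio over the class was 0.84 when 3 cells with the most Ccl5 were left out of each library. Ccl3, at 502 and 744 CPM (0.57, 0.50 to 0.63), stood just under 1.5-fold, and its detection in thinned cells was 24.2% and 33.1%, against 0.123% and 0.163% in the large compartment.

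Among the ligands of Ccr2, Ccl2 in macrophage/monocyte-like cells stood at 1480 and 1892 CPM (0.35, 0.31 to 0.39), Ccl7 at 793 and 1050 CPM (0.41, 0.35 to 0.46) and Ccl12 at 418 and 473 CPM (0.18, 0.10 to 0.26). Ccl8 stood at 320 and 402 CPM (0.33, 0.24 to 0.42). Within the states Ccl2 had an interval above 0 in 6 of 8 and below 0 in 1. For Ccl7 it was above 0 in 5 of 8 and below 0 in 2, from -0.73 in P6 to 2.09 in P8. For Ccl12 it was above 0 in 4 of 7 and below 0 in 1. The share of P6 also differed, and with equal weight per state the log2 ratio was -0.05 for Ccl7, -0.01 for Ccl12, 0.32 for Ccl8, 0.13 for Ccl2, 0.24 for Ccl3 and 0.66 for Ccl4. Ccl9 (664 and 699 CPM, 0.07) and Ccl6 (1356 and 1310 CPM, -0.05) differed by less than the median size for well-counted genes.

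Inside P6 5 members had intervals below 0, so that they stood lower with the SPP1 label. The share of all genes with such an interval in P6 was not counted, so this number describes the members only. Ccl8 stood at 981 CPM and 253 CPM (-1.95, -2.18 to -1.73), Ccl12 at 1051 and 511 CPM (-1.04), Ccl6 at 1000 and 507 CPM (-0.98), Ccl7 at 2690 and 1618 CPM (-0.73) and Ccl2 at 2965 and 2018 CPM (-0.55). Ccl4 alone had an interval above 0 there, at 0.28 (0.13 to 0.44), and those of Ccl3 (-0.05) and Ccl9 (-0.03) spanned 0. The vector side of P6 rests on 51 cells, and 3 cells held 45.4% and 56.1% of its Ccl8 UMIs. In P5, led by Cxcl9, Ccl8 was higher in the library labelled SPP1 instead, at 174 and 681 CPM (1.96, 1.71 to 2.22), but 3 cells held 49.7% and 65.5% of those UMIs, and 16.5% and 19.4% of P5 cells held one. Over the 7 states with enough Ccl8 UMIs its interval lay above 0 in 3 and below 0 in 2.

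**Figure D5:**
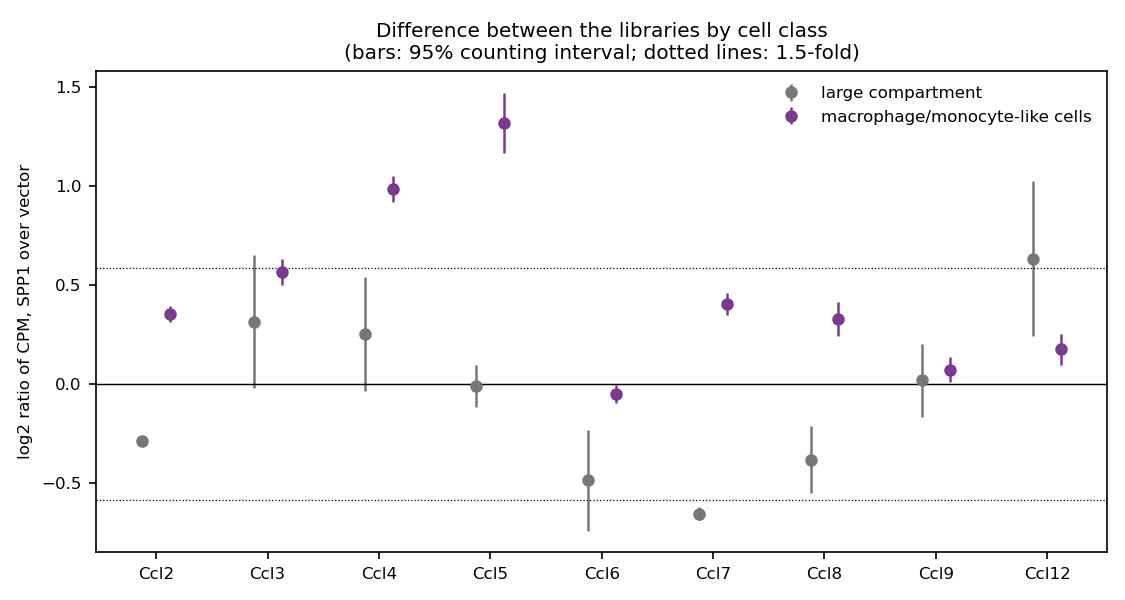
Log2 ratio of CPM, the library labelled SPP1 over the library labelled vector, for each gene, shown for the large compartment (grey) and the macrophage/monocyte-like class (purple), with 95% counting intervals; dotted lines mark 1.5-fold. Ccl2, Ccl7 and Ccl8 lie below 0 in grey and above 0 in purple, and Ccl4 and Ccl5 lie highest in purple at 0.98 and 1.32.

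Ccl7 was past 1.5-fold on the lower side in the large compartment: 154 CPM (152 to 156) against 97.9 CPM (96.2 to 99.6), a log2 ratio of -0.65 (-0.68 to -0.62). Its interval lay below 0 in 8 of the 12 clusters and above 0 in none, from -1.42 in C4 to 0.72 in C15. Without C5 and C15, the clusters that came almost wholly from 1 library, the ratio was -0.49, which is inside 1.5-fold. Ccl2 had a ratio of -0.29 (-0.30 to -0.28), with an interval below 0 in 9 clusters and above 0 in 2, C10 and C15, and of -0.21 without C5 and C15. Ccl8 stood at 4.83 and 3.71 CPM (-0.38, -0.55 to -0.21) and Ccl5 at 10.2 CPM in both libraries (-0.01, -0.12 to 0.10). The member past 1.5-fold on the higher side was Ccl12, at 0.669 and 1.04 CPM (0.63, 0.24 to 1.02), a level within the background range of the macrophage yardstick. Under several alternatives Ccl12 was inside 1.5-fold: at 0.36 (-1.23 to 2.02) with cells thinned to 1000 UMIs, 0.51 with no removal of doublets, 0.54 with a stricter cell filter, 0.57 with clusters formed with all genes and 0.57 at a cluster resolution of 0.6. Over all kept cells 0 members were past 1.5-fold in either direction, beside 4.13% of 16385 genes higher and 2.37% lower. Ccl7 was at -0.46, Ccl6 at -0.37, Ccl2 at -0.24 and Ccl4 at 0.44 there.

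T and NK-like cells carried Ccl5, Ccl4 and Ccl3, products of activated CD8 T cells and NK cells. Ccl5 stood at 859 CPM (791 to 931) and 1167 CPM (1075 to 1265), a ratio of 0.44, and 0.12 without the 3 highest cells. It was highest in L4, a CD8 T-like cluster led by Adgrg1 and Efhc2, at 2605 and 3248 CPM, but 3 of its 19 and 20 cells held 59.5% and 88.4% of those UMIs. In L4 47.4% and 45.0% of cells held a Ccl5 UMI, against 63.6% and 87.5% in L2, another CD8 T-like cluster, where the level was 1390 and 1719 CPM. The level was lower in the NK-like cluster L0, at 396 and 595 CPM, and in L6, also CD8 T-like, at 614 and 379 CPM. Ccl4 stood at 680 and 694 CPM (0.03) and Ccl3 at 411 and 278 CPM (-0.56, -0.87 to -0.27), just inside 1.5-fold. Without the 3 highest cells of each library Ccl3 was past it, at -1.29, and Ccl4 turned to -0.24. Of 5 members with at least 20 UMIs, 1 was past 1.5-fold higher and 0 lower, beside 10.1% and 13% of 6597 genes. This was Ccl9, with 5 and 20 UMIs, of which a single cell of the regulatory T-like cluster L3 held 19. Only 2 cells of the library labelled SPP1 held a Ccl9 UMI, so this value describes those cells.

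Dendritic cell-like cells, 42 and 21 in number, carried Ccl5 at 1272 and 849 CPM, Ccl4 at 362 and 482 CPM and Ccl3 at 183 and 469 CPM. A few cells made these levels: 3 cells held 96.0% and 99.2% of the Ccl5 UMIs and 88.9% and 87.7% of the Ccl3 UMIs. The 3 cells highest in Ccl5 also held 70 and 31 UMIs of Ccr7, Fscn1, Il4i1 and Cacnb3, markers of migratory dendritic cells, which travel to lymph nodes. Of 4 members with at least 100 UMIs, 1 was past 1.5-fold higher (Ccl3, 1.36) and 0 lower, where 4.41% and 10.8% of 793 genes were, and Ccl5 at -0.58 lay just inside.

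In fibroblast-like cells 0 of 2 members with at least 100 UMIs were past 1.5-fold (Ccl2 0.04, Ccl7 0.34), beside 7.94% of 1512 genes higher and 8.4% lower. Among cells of low UMI content 1 of 9 was past it higher and 0 lower, beside 2.54% and 1.34% of 10193 genes. That was Ccl12, with 63 and 131 UMIs, at 7.13 and 14.4 CPM (1.01, 0.57 to 1.47). The yardstick's macrophage genes stood there at 1.72% to 2.49% (vector) and 2.51% to 3.14% (SPP1) of their macrophage/monocyte-like level. Ccl12 stood at 418 and 473 CPM in macrophage/monocyte-like cells, and whether its difference here goes beyond this background was not tested. Ccl2 stood at 959 and 958 CPM in cells of low UMI content.

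Of the 12 other CC chemokines listed, 8 had at least 100 UMIs over all kept cells. Ccl11, an attractant of eosinophils that lies between Ccl7 and Ccl12, stood at 785 and 659 CPM in fibroblast-like cells and at 4.52 CPM or less in macrophage/monocyte-like cells and the large compartment. The Ccr4 ligands Ccl17 and Ccl22 stood at 2212 and 1286 CPM and at 450 and 180 CPM in dendritic cell-like cells. Ccl1, a ligand of Ccr8, stood at 96.5 and 231 CPM in T and NK-like cells. Ccl25, an attractant of cells bearing Ccr9, stood at 40.2 and 38.7 CPM in the large compartment. Of the 12, 3 were measured in macrophage/monocyte-like cells, with 0 past 1.5-fold higher and 1 lower (Ccl17, -0.75), beside 2.96% and 1.82% of all genes.

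Among the receptors for these ligands, transcripts of Ccr1 and Ccr2 stood higher in macrophage/monocyte-like cells than in T and NK-like cells, dendritic cell-like cells and the large compartment. Ccr2 stood there at 636 and 405 CPM (-0.65, -0.73 to -0.58) and Ccr1 at 334 and 329 CPM (-0.02). In T and NK-like cells Ccr2 stood at 313 and 227 CPM and Ccr1 at 21.9 and 13.8 CPM. Of 10 signalling receptors listed, 3 had enough UMIs in macrophage/monocyte-like cells, and 0 of them were past 1.5-fold higher and 1, Ccr2, lower, beside 2.96% and 1.82% of all genes. Ccr2 was high in the monocyte-led P8 (1237 and 1066 CPM) and in P5 (952 and 890 CPM) and low in the resident-like P6 (175 and 183 CPM) and in P3 (136 and 46.2 CPM). P6, with the most Ccl7, was thus among the states with the least Ccr2. Ccrl2, an atypical receptor that does not signal, stood at 285 and 270 CPM in macrophage/monocyte-like cells. Ackr3, an atypical receptor known for binding Cxcl12, stood at 269 and 249 CPM in the large compartment.

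Programmes that are known to drive CC chemokine genes were listed beside them. Of 12 targets of NF-kB, 0 were past 1.5-fold higher and 1 lower in macrophage/monocyte-like cells, beside 2.96% and 1.82% of all genes. The median log2 ratio of the 12 was 0.01, against -0.02 over all genes. Il1b was the one lower, at 1529 and 1001 CPM (-0.61), and Nfkbia, the NF-kB inhibitor, stood at 1211 and 1189 CPM (-0.03), while Ptgs2 stood at 1204 and 887 CPM (-0.44). Of 13 genes of the interferon response 4 were past 1.5-fold higher and 0 lower, beside the same shares of all genes, with a median of 0.27. They were Isg15 (0.94), Ifit1 (0.82), Oasl1 (0.68) and Ifit3 (0.66), at 46.0 CPM or less, and were named after their values were seen. The most abundant of that list were Cxcl10, at 526 and 550 CPM (0.06), and Cxcl9, at 515 and 445 CPM (-0.21). In the large compartment 0 of the 13 were past 1.5-fold in either direction, beside 4.02% of all genes higher and 1.53% lower. The median of the 13 there was 0.25 (0.01 over all genes), close to that in macrophage/monocyte-like cells.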

How the data were processed

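Raw, unscaled UMI counts for each gene and barcode were deposited by the authors; that they are whole numbers was checked. Per the submitters' processing notes, Cell Ranger 2.1.1 and GRCm39 were used. For cell calling, the annotation release and any earlier removal of free RNA or doublets, the sources used here give nothing. Barcodes were kept from 300 genes and 500 UMIs upward, with no more than 15% of UMIs mitochondrial. A rewritten form of Scrublet's method marked doublets in each library, and 423 (2.97%) and 578 (4.14%) cells were left out.

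Cells of both libraries were clustered together by the Leiden method (leidenalg 0.10.2, resolution 1.0, no batch integration) on 30 principal components of 2000 variable genes, leaving out genes whose symbol starts with Ccl and a digit. Phagocytes, lymphocytes and stroma were clustered again. Clusters were named from marker lists: at least 3 and 50% of a list raised, with a mean log2 ratio of at least 2. UMIs were summed per class and library. CPM have exact Poisson, shares exact binomial (Clopper-Pearson) and log2 ratios exact conditional binomial intervals. Only the ratio intervals were tried on simulated counts. Those counts were drawn from the Poisson model that the intervals assume, so the trial does not cover UMIs clumped in few cells. Counts past 1.5-fold took genes with at least 100 UMIs over both libraries (20 in T and NK-like cells). A count of 0 was bounded with 3 counts.

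All 9 members were named. Other chemokines and receptors needed 20 UMIs in the class. A listed receptor and a searched motif are not reported here. Up to 4 genes of the NF-kB and interferon lists were named by level, the 4 interferon genes past 1.5-fold were named after seeing their values, and 3 genes per member by r. The members, lists and tests were chosen with earlier results of these data known. Sequences are RefSeq's, build GRCm38.p6. Settings changed were doublet removal, the cell filter, scaling, the highest cells, depth, Ccl genes in the clustering, resolution, clusters mostly of 1 library, equal weight per state and the minimum of UMIs; leaving out the state of low UMI content was added after seeing the data.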

Additional observations from a re-analysis of the deposited data

Results flagged for a closer look

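Ccl2, Ccl7 and Ccl8 stood out because the difference between the libraries ran in opposite directions in macrophage/monocyte-like cells and in the large compartment, with both intervals clear of 0. The log2 ratio in macrophage/monocyte-like cells minus that in the large compartment was 0.64 for Ccl2, 1.06 for Ccl7 and 0.71 for Ccl8. With 1 library per group this difference was not tested, and the share of all genes that meet the same rule was not counted. In the large compartment Ccl8 stood at 4.83 and 3.71 CPM. Over 7 macrophage states its interval lay above 0 in 3 and below 0 in 2. For Ccl7 the ratio in macrophage/monocyte-like cells was -0.05 with equal weight per state, so its contrast with the large compartment then loses the opposite direction. Within single states its interval lay above 0 in 5 of 8 and below 0 in 2, P6 and P7.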

How the results depend on the processing

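In macrophage/monocyte-like cells 97 of 99 ratios of single members kept their direction over the other settings; the exceptions, Ccl7 and Ccl12, came with equal weight per state, where the members' median was 0.14. Past 1.5-fold there stood 3 members rather than 2 with thinned cells (Ccl8 at 0.59) and at resolution 0.6 (Ccl3 at 0.59). In the large compartment 82 of 90 kept it; the exceptions were Ccl5 (6 settings, -0.04 to 0.21) and Ccl9 (2 settings, lowest -0.60 with thinned cells). Its count of members past 1.5-fold, 2 as reported, was 1 with cells thinned to 1000 UMIs, without clusters mostly of 1 library, with no removal of doublets, with the stricter cell filter, with clusters formed with all genes and at resolution 0.6. Ccl12 was the one lost in all of these but the second, where it was Ccl7. With thinned cells Ccl9 and Ccl12 had under 100 UMIs and were not counted, and the median of the members counted was -0.32. The count in T and NK-like cells, 1 as reported, was 0 with the other minimum of UMIs, 2 with no removal of doublets (Ccl3 joined) and 3 with the stricter cell filter (Ccl3 among them, at -0.87). Over all kept cells 77 of 81 ratios kept their direction. No paired analysis was possible because each group had 1 library and no test was made. Depth limits the small classes: dendritic cell-like and fibroblast-like levels rest on at most 42 cells per library.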
